A study of Mus musculus with 12 samples.

Results

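Cytosolic ribosomal protein genes are described here in ventricles of the heart from 6 Vps13c-cKO and 6 WT mice. All 12 were males on a chow diet, taken at the age of 7 weeks. Members were taken by name, as mouse symbols of the Rpl and Rps series together with Rpsa, Rplp0, Rplp1 and Rplp2, where the 12 libraries held 60 or more summed read counts. Rpl3, Rpl3l, the ribosomal S6 kinases and named pseudogene rows were left out. The rule gave 78 of the 21959 genes in the table, 32 of the small ribosomal subunit and 46 of the large one. In Vps13c-cKO mice the lipid transfer gene Vps13c had been deleted in the heart, while WT mice are wild type. The labels name neither the driver that restricted the deletion to the heart nor its presence in WT mice, and they give no litters or batches. Each library was made from poly-A RNA of 1 mouse.

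A cytosolic ribosome holds a single copy of almost every ribosomal protein, so the proteins are needed in like amounts. Ribosomal protein genes are known as housekeeping genes of high expression that are transcribed in concert. Their mRNAs begin with a tract of pyrimidines, called the terminal oligopyrimidine tract, through which the mTORC1 kinase controls their translation. A change in translation would not be visible in counts of mRNA.

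Ribosomal protein mRNA made up 0.843% of gene counts in Vps13c-cKO ventricles and 0.847% in WT ventricles. In Vps13c-cKO ventricles 1 of the 78 genes was higher, Rps27l, and 5 were lower, among them Rplp2, Rps15a, Rps3 and Rps13 (edgeR quasi-likelihood test, Benjamini-Hochberg adjusted p under 0.05 over all genes). Of all 12384 tested genes 5.65% were higher and 5.10% lower, against 1.28% and 6.41% of the ribosomal protein genes, so the share that fell is near the background. The changes were small, between -0.21 and 0.26 on the log2 scale. All 5 genes that fell lie on chromosome 7, among the distal 478 of its 955 tested genes when these are put in order along the chromosome. This division of chromosome 7 was chosen after the values had been seen.

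The bases around the start of transcription are shown for genes of chromosome 7, which the results turn on, and for Rps27l. Each stretch is 60 bases of the mouse build GRCm38.p6 from RefSeq, 30 before and 30 from the annotated start on, written along the gene's strand. Capitals mark the longest unbroken run of C and T, or the first of them where runs tie, as in Rps27l. RefSeq lists 2 starts for Rps27l, of which 1 is shown.
Rplp2, chr7:141447621-141447680, plus strand: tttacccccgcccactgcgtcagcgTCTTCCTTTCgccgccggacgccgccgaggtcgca
Rps15a, chr7:118116118-118116177, minus strand: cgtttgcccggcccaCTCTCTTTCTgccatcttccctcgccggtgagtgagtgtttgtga
Rps3, chr7:99483680-99483739, minus strand: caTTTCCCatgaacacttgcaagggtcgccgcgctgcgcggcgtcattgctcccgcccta
Rps13, chr7:116334161-116334220, minus strand: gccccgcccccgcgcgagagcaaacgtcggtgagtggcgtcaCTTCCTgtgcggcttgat
Rpl27a, chr7:109519165-109519224, plus strand: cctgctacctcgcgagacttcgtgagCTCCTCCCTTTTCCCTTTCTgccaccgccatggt
Rps9, chr7:3704011-3704070, plus strand: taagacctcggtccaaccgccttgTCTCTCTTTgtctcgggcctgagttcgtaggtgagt
Rpl28, chr7:4792935-4792994, plus strand: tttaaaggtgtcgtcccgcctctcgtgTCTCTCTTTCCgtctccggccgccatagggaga
Rps27l, chr9:66946056-66946115, plus strand: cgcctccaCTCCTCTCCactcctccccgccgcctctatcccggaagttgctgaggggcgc

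Among these 8, the genes that fell had runs of 10 bases in Rplp2 and Rps15a and of 6 bases in Rps3 and Rps13. The chromosome 7 genes that did not pass the test had runs of 20 bases in Rpl27a, 11 in Rpl28 and 9 in Rps9. Counted from the annotated start, the runs of Rplp2, Rpl27a, Rpl28 and Rps9 spanned it. Those of Rps15a (-15 to -6), Rps3 (-28 to -23) and Rps27l (-22 to -14) lay before it, outside the annotated mRNA. That of Rps13 lay past it, at 13 to 18. A marked run is thus not always the start of the mRNA. RefSeq windows matched 59 of the 78 genes. A run of at least 8 pyrimidines within 30 bases of the start was present for 34 of the 59 (57.6%), against 25.8% of 27025 genes with a window. The letters CTTTCC, which can lie inside such a run, were searched on the sense strand of a window of 300 bases, 250 before the start and 50 from it on. They occurred for 24 of the 59 genes (40.7%), against 16.0% of all genes. CCGGAAG, a sequence that ETS family factors can bind, was searched on both strands and occurred for 25 (42.4%), against 9.9% of all genes. Among distal chromosome 7 members, a run of at least 8 pyrimidines was in 3 of 5 windows, CTTTCC in 0 and CCGGAAG in 2. Among proximal members, such a run was in 4 of 6 windows, CTTTCC in 5 and CCGGAAG in 0. The windows are few, and the division of chromosome 7 was chosen after the values had been seen, so these counts are a description. These matches describe the letters in the windows and nothing more.

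The libraries held 12484523 to 14188716 gene counts in Vps13c-cKO and 13348018 to 15562942 in WT. Vps13c, the check of the labels, was at 16.3 to 20.3 CPM (counts per 1000000 gene counts, with library sizes scaled by TMM factors) in Vps13c-cKO ventricles and at 54.6 to 68.6 CPM in WT ventricles. Mitochondrially encoded genes took 31.2% ± 0.606 of counts in Vps13c-cKO and 30.1% ± 0.761 in WT (SD, n = 6 each). Genes with at least 1 count numbered 15137 to 15406 in Vps13c-cKO and 14861 to 15024 in WT. Of 10 fibroblast markers 7 were higher and 0 lower, with a summed level of 2196 to 2450 CPM in Vps13c-cKO and 1918 to 2172 CPM in WT. Of 10 macrophage markers 4 were higher and 0 lower, with 345 to 417 CPM in Vps13c-cKO and 280 to 396 CPM in WT. Of 10 cardiomyocyte markers 1 was higher and 3 lower, and their sum was 59422 to 64387 CPM in Vps13c-cKO and 61066 to 66856 CPM in WT. The summed markers were 1311 to 1479 CPM in Vps13c-cKO and 1374 to 1545 CPM in WT for endothelial cells (0 of 10 higher, 1 lower), and 2894 to 3013 CPM in Vps13c-cKO and 2809 to 3023 CPM in WT for smooth muscle cells and pericytes (2 of 9 higher, 2 lower). Of 3 tested atrial markers 1 was higher, Nppa, at 19.7 ± 5.49 CPM in Vps13c-cKO and 4.56 ± 1.93 CPM in WT. Myl4 and Dkk3 were not called, and Myl4 was at 1.28 ± 0.498 CPM in Vps13c-cKO and 6.06 ± 12.4 CPM in WT. The summed atrial markers were 17.6 to 32 CPM in Vps13c-cKO and 4.90 to 81.8 CPM in WT. Red cell markers summed to 237 to 735 CPM in Vps13c-cKO and 282 to 452 CPM in WT. Of these, 0 of 5 were called, as were 0 of 1 lymphocyte marker, and no adipocyte marker passed the filter. The share of atrial tissue or blood in each library was not tested. None of the markers was at 0 in all mice. The part of these differences in the results below was not tested. In bulk tissue, fewer cells of a type and less RNA per cell cannot be told apart.

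Together the 78 genes took 0.843% ± 0.0200 of all gene counts in Vps13c-cKO ventricles and 0.847% ± 0.0340 in WT ventricles (SD, n = 6 each). The shares ran between 0.819% and 0.874% in Vps13c-cKO and between 0.806% and 0.891% in WT, so that the WT range held the Vps13c-cKO range. With mitochondrially encoded genes left out of the total, the means were 1.22% ± 0.0237 in Vps13c-cKO and 1.21% ± 0.0506 in WT. The median log2 fold change of the 78 genes was -0.01, against 0.00 over all tested genes. Of the 78, 35 estimates lay above 0 and 43 below.

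Mice differed from each other over the whole family by more than the groups did. The median deviation of a mouse from the mean of each gene, over the 73 genes with 1000 or more summed counts, lay between -0.04 and 0.03 (log2) in Vps13c-cKO mice. In WT mice it lay between -0.09 and 0.07. WT mice 1 and 3 were the lowest of the 12 by this measure, and WT mice 2 and 4 the highest.

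**Figure D1:**
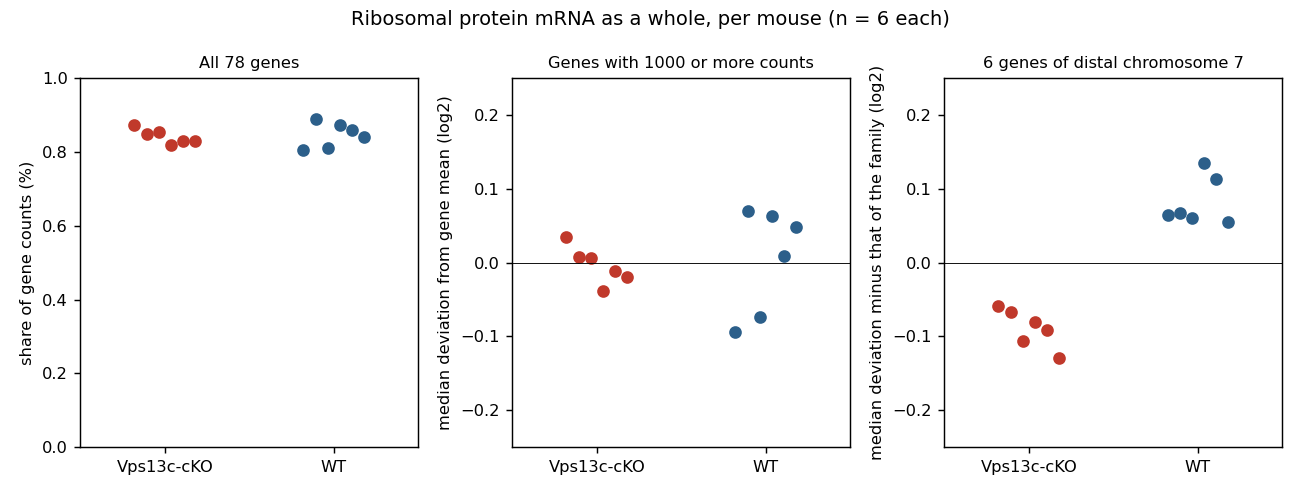
Ribosomal protein mRNA in each mouse. Left, summed counts of the 78 genes as a percent of all gene counts; middle, median log2 deviation from the gene means over genes with 1000 or more counts; right, the same median over the 6 distal chromosome 7 genes minus that of the family. Points are mice, with Vps13c-cKO left of WT; the groups overlap in the first 2 panels and lie between -0.13 and -0.06 in Vps13c-cKO and between 0.06 and 0.14 in WT in the third.

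For most members the data bound the change closely. Of the 72 genes that did not pass the test, 67 had 1000 or more summed counts, and the 95% interval of the fold change of all 67 lay within 1.3-fold in either direction, a limit chosen after the values were seen. Their log2 fold changes ran between -0.14 and 0.11. Of the 5 genes with fewer counts, Rpl35 had an interval that just kept within 1.3-fold, while those of Rps10, Rpl23a, Rpl13a and Rpl22l1 reached past it, so that such a change could not be bounded at this depth. The median size of change, whatever its direction, was 1.03-fold over the 78 genes and 1.06-fold over all tested genes.

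**Figure D2:**
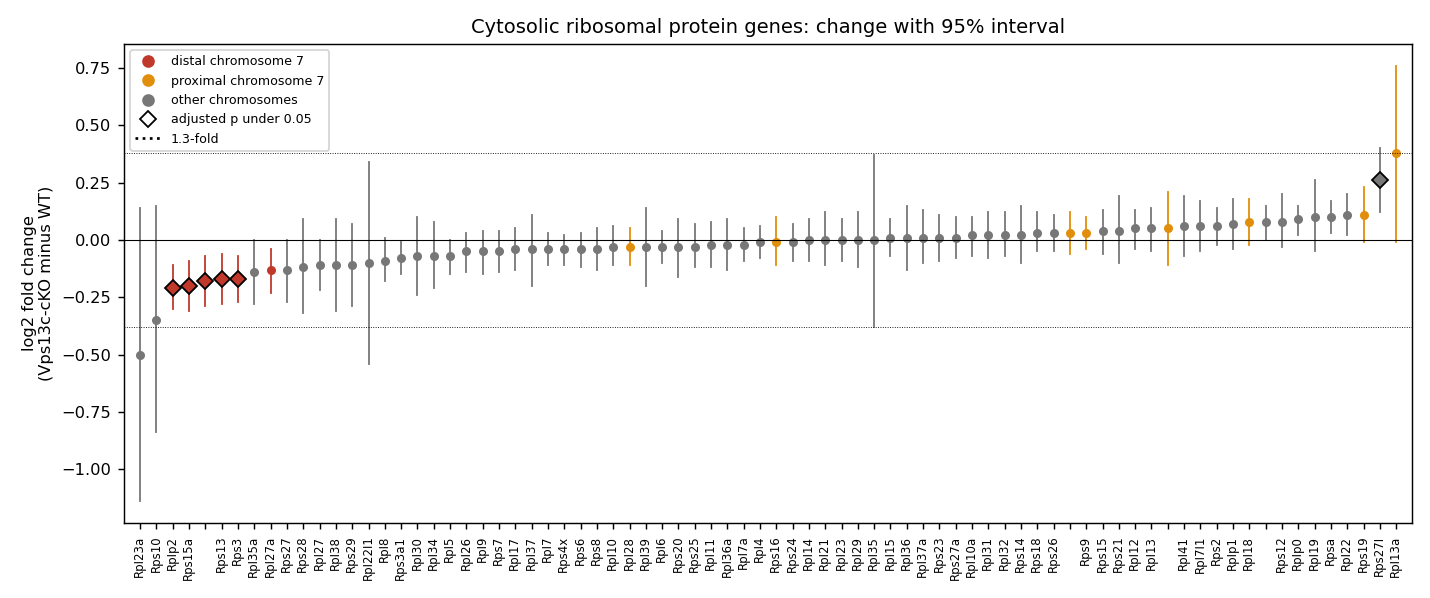
Log2 fold change (Vps13c-cKO minus WT, vertical axis) of each of the 78 ribosomal protein genes with its 95% interval, ordered from lowest to highest; some genes are plotted without a name. Diamonds are genes past an adjusted p of 0.05; dotted lines mark 1.3-fold. The 5 lower genes are on distal chromosome 7, at -0.21 to -0.17, and Rps27l is at 0.26.

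Rplp2 (ENSMUSG00000025508) encodes an acidic protein of the stalk of the large subunit, which recruits translation factors. It was at 37.3, 36.9, 36.3, 34.3, 36.2 and 36.7 CPM in Vps13c-cKO mice 1 to 6, against 41.4, 40.2, 40.9, 44.5, 43.3 and 40.8 CPM in WT mice 1 to 6. Every Vps13c-cKO value lay below every WT value. The log2 fold change was -0.21 ± 0.04 (SE, n = 6 each; edgeR adjusted p = 0.00335). It was the only member that was lower without overlap between the groups, and 2.18% of all tested genes were lower in this way. The other stalk genes did not pass the edgeR test. Rplp0, the base of the stalk, averaged 386 ± 8.53 CPM in Vps13c-cKO and 364 ± 9.80 CPM in WT (log2 fold change 0.09 ± 0.03, edgeR adjusted p = 0.0806), and its groups did not overlap, as for 2.75% of all tested genes that were higher. With DESeq2 Rplp0 passed as higher (adjusted p = 0.0248). Rplp1, the partner of Rplp2, averaged 92.2 ± 5.66 CPM in Vps13c-cKO and 87.8 ± 7.85 CPM in WT (edgeR adjusted p = 0.487).

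Among small subunit genes that fell, Rps3 (ENSMUSG00000030744) encodes a protein at the mRNA entry of the ribosome that also acts in DNA repair. It was at 168, 167, 152, 153, 154 and 152 CPM in Vps13c-cKO mice, against 165, 182, 159, 192, 188 and 179 CPM in WT mice. The groups overlapped through WT mice 1 and 3 and Vps13c-cKO mice 1 and 2. Its log2 fold change was -0.17 ± 0.05 (edgeR adjusted p = 0.0197).

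Rps15a (ENSMUSG00000008683) was at 74.0, 73.8, 75.6, 68.4, 73.5 and 66.6 CPM in Vps13c-cKO mice, against 71.2, 84.3, 77.0, 90.1, 84.7 and 89.6 CPM in WT mice. WT mouse 1 alone lay within the Vps13c-cKO range. The log2 fold change was -0.20 ± 0.05 (edgeR adjusted p = 0.0164).

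Rps13 (ENSMUSG00000090862) was at 79.6, 74.8, 72.6, 72.0, 72.5 and 69.7 CPM in Vps13c-cKO mice, against 76.6, 92.9, 72.8, 87.1, 84.0 and 81.7 CPM in WT mice. WT mice 1 and 3 lay within the Vps13c-cKO range. The log2 fold change was -0.17 ± 0.05 (edgeR adjusted p = 0.0404). It missed the threshold without Vps13c-cKO mouse 2, 3, 4, 5 or 6 and without WT mouse 2, 4, 5 or 6, with an edgeR adjusted p of 0.0539 to 0.110 over these.

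Rpl27a (ENSMUSG00000046364), the other distal member, was at 112, 120, 116, 114, 116 and 105 CPM in Vps13c-cKO mice, against 116, 132, 117, 137, 119 and 128 CPM in WT mice. The groups overlapped, and the log2 fold change of -0.13 ± 0.05 missed the threshold (edgeR adjusted p = 0.0679).

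**Figure D3:**
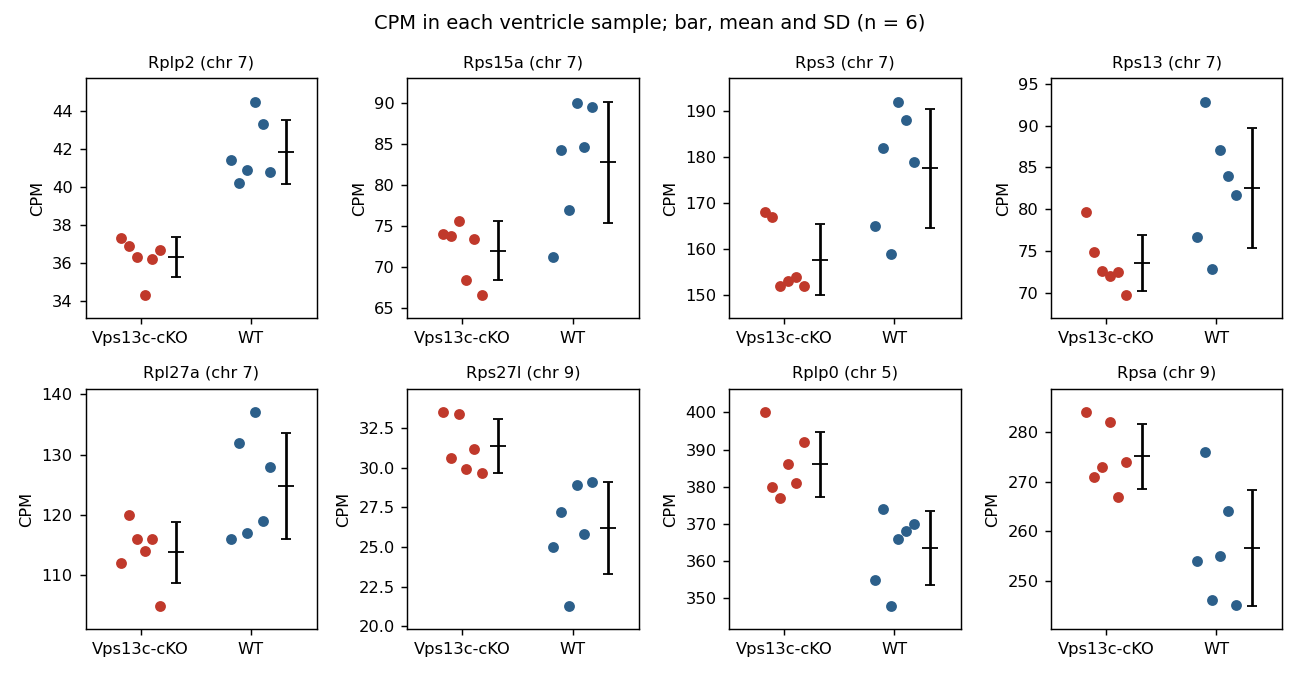
CPM of 8 ribosomal protein genes in each mouse, Vps13c-cKO left of WT, with the mean and SD of each group; vertical axes do not start at 0. Rplp2 lies at 34.3 to 37.3 CPM in Vps13c-cKO and 40.2 to 44.5 CPM in WT, with no overlap.

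Chromosome 7 carried 14 of the 78 genes, and the 5 that fell were all among its 6 distal members. Rpl27a, which did not pass, lies between Rps3 and Rps13 in order. The distal 478 tested genes held 6 members, with 5 lower and a median log2 fold change of -0.18. The proximal 477 held 8, among them Rps9, Rpl28, Rps19, Rps16, Rpl13a and Rpl18, with 0 called, 0 of them at an unadjusted p under 0.05, and a median of 0.04. On all other chromosomes 0 of 64 members were lower in the edgeR test and 1 was higher, where 10.1% of all tested genes were called in either direction. At an unadjusted p under 0.05 there were 7 of the 64, beside 2947 of all 12384 tested genes. DESeq2 called 0 of the 64 lower and 3 higher, Rps27l, Rpsa and Rplp0. Of all tested genes of chromosome 7, 8.90% were lower and 9.63% higher. Lower genes made up 14.0% of the distal set, 3.77% of the proximal set and 4.78% of genes on other chromosomes. Higher genes made up 10.9% of the distal set, 8.39% of the proximal set and 5.32% elsewhere. The median over all distal genes was -0.04. Per mouse, the median deviation of the 6 distal members minus that of the family was -0.13 to -0.06 (log2) in Vps13c-cKO and 0.06 to 0.14 in WT. The 6 genes were grouped after their values had been seen, so this separation is a description. For the proximal members it was -0.01 to 0.05 in Vps13c-cKO and -0.15 to 0.08 in WT. The part of chromosome position in the result was not tested.

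**Figure D4:**
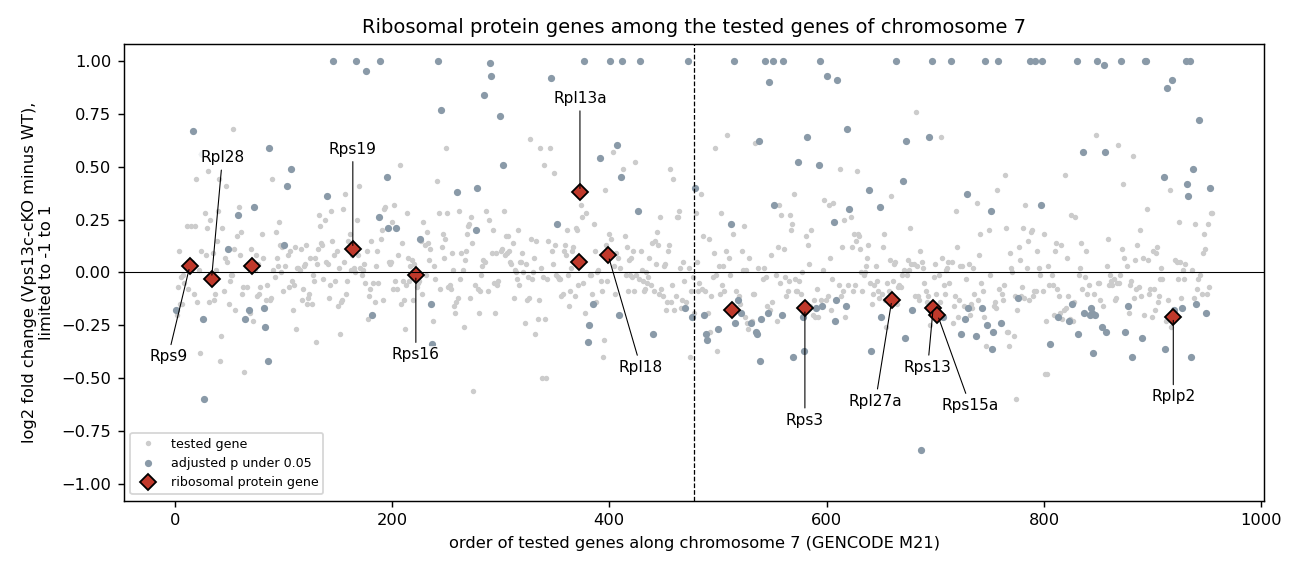
Log2 fold change (Vps13c-cKO minus WT) of tested genes of chromosome 7 by their order along it, with the 14 ribosomal protein genes marked, not all of them by name. The 8 proximal members lie between -0.03 and 0.38 and the 6 distal ones between -0.21 and -0.13.

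Rps27l (ENSMUSG00000036781), on chromosome 9 like Vps13c, encodes a near relative of Rps27 and is known as a target of p53. Neither the part of p53 nor that of a place on the same chromosome as the deleted gene was tested. It was at 33.5, 30.6, 33.4, 29.9, 31.2 and 29.7 CPM in Vps13c-cKO mice, against 25, 27.2, 21.3, 28.9, 25.8 and 29.1 CPM in WT mice. Every Vps13c-cKO value lay above every WT value, though by little. Of the 78 members 2 were higher without overlap, beside 2.75% of all tested genes. The log2 fold change was 0.26 ± 0.07 (edgeR adjusted p = 0.0134). Rps27 averaged 38.0 ± 2.27 CPM in Vps13c-cKO and 41.7 ± 4.85 CPM in WT and did not pass the test (log2 fold change -0.13 ± 0.07, edgeR adjusted p = 0.221). Rps27l counts were 82.6% ± 3.86 of Rps27 counts in Vps13c-cKO mice and 63.1% ± 6.24 in WT mice, with ranges of 78.2% to 89.2% and 54.6% to 71.5% that did not overlap. This percentage takes in a gene already called higher, so it is a description. The other pairs of relatives overlapped. Rpl22l1 counts were 1.76% ± 0.465 of Rpl22 counts in Vps13c-cKO and 2.04% ± 0.389 in WT, and Rpl7l1 counts were 16.5% ± 1.42 of Rpl7 counts in Vps13c-cKO and 15.3% ± 1.07 in WT.

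Rps6, Rpl5, Rpl11, Rps19, Rpsa and Rpl22, each known for a role in signalling or disease or outside the ribosome, did not pass the edgeR test. Rps6, the substrate of S6 kinase, averaged 194 ± 4.85 CPM in Vps13c-cKO and 200 ± 7.66 CPM in WT (edgeR adjusted p = 0.474). Rpl5, which binds Mdm2 together with Rpl11, averaged 177 ± 5.96 CPM in Vps13c-cKO and 186 ± 7.86 CPM in WT (edgeR adjusted p = 0.240). Rpl11 averaged 96.2 ± 2.84 CPM in Vps13c-cKO and 97.5 ± 8.19 CPM in WT (edgeR adjusted p = 0.864). Rps19, the gene most often mutated in Diamond-Blackfan anaemia, averaged 54.0 ± 2.1 CPM in Vps13c-cKO and 50.1 ± 5.44 CPM in WT (edgeR adjusted p = 0.276). Rpsa, also known as the laminin receptor, averaged 275 ± 6.42 CPM in Vps13c-cKO and 257 ± 11.7 CPM in WT (log2 fold change 0.10 ± 0.04, edgeR adjusted p = 0.0700), and it passed with DESeq2 (adjusted p = 0.0380). Rpl22 averaged 91.9 ± 3.31 CPM in Vps13c-cKO and 84.9 ± 5.33 CPM in WT (edgeR adjusted p = 0.101).

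Rps27a, which encodes a fusion with ubiquitin, averaged 92.0 ± 3.03 CPM in Vps13c-cKO and 91.3 ± 6.40 CPM in WT. Rpl10a and Rpl38, described as selective for some mRNAs, averaged 69.6 ± 2.00 and 13.5 ± 1.78 CPM in Vps13c-cKO, against 68.7 ± 3.46 and 14.7 ± 2.01 CPM in WT. The X-linked Rps4x averaged 241 ± 7.82 CPM in Vps13c-cKO and 249 ± 5.54 CPM in WT, and Rpl10, also X-linked, 181 ± 10.1 CPM in Vps13c-cKO and 184 ± 7.63 CPM in WT. None of these 5 passed the edgeR test, and their log2 fold changes lay between -0.11 and 0.02.

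Levels within the family were compared as CPM per kilobase of mRNA, with lengths from GENCODE M21. Each length is that of 1 annotated transcript, so the levels depend on the transcript taken. For Rps15a it was 5130 bases with a coding sequence of 390, which gave 14.0 CPM per kilobase in Vps13c-cKO and 16.1 in WT. The median was 121 in Vps13c-cKO and 120 in WT, and 62 of the 78 genes lay within 3-fold of the WT median. Rps2 was highest, at 493 ± 9.45 CPM per kilobase in Vps13c-cKO and 473 ± 31.3 in WT. Rps15 followed, with 337 ± 14.4 in Vps13c-cKO and 328 ± 24.4 in WT, and its level did not differ from those of Rps3a1 and Rps14 beyond their spread. At the low end, Rpl13a was at 1.74 ± 0.301 CPM per kilobase in Vps13c-cKO and 1.34 ± 0.231 in WT. Rpl23a was at 1.62 ± 0.833 in Vps13c-cKO and 2.32 ± 0.878 in WT, Rps10 at 1.92 ± 0.583 in Vps13c-cKO and 2.47 ± 0.470 in WT, and Rpl35 at 2.74 ± 0.555 in Vps13c-cKO and 2.74 ± 0.685 in WT.

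**Figure D5:**
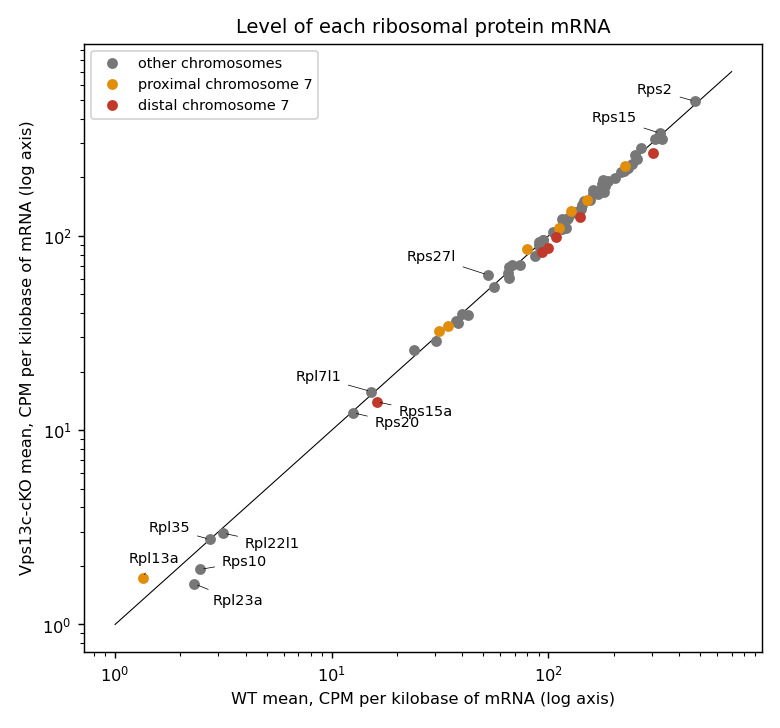
Mean level of each ribosomal protein gene in CPM per kilobase of mRNA, Vps13c-cKO on the vertical and WT on the horizontal axis, both log axes, with the line of equal levels. Most genes lie near the medians of 121 in Vps13c-cKO and 120 in WT, and Rpl13a, Rpl23a, Rps10 and Rpl35 lie far below.

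Near-identical copies limit how these levels can be read. Of the 78 genes, 67 had a near copy in at least 1 other gene, and Rpl21 had copies in 32. A copy was another gene with an annotated transcript that matched 80% or more of the coding sequence at 97% identity or more. The labels do not say how reads that fit several copies were counted, so the levels of such genes are uncertain. In WT the median was 121 CPM per kilobase over these 67 genes and 119 over the 11 genes with 0 copies. The WT range was wider with copies, 1.34 to 473 CPM per kilobase, against 15.2 to 309 with 0 copies. Of the genes at the low end, Rpl13a had 2 copies, Rpl23a 7, Rps10 3 and Rpl35 3. The part of copies in these low levels was not tested. Of the genes named as changed, Rps15a and Rps13 had 5 copies each and Rplp2 had 1, while Rps3 and Rps27l had 0. Rps27, against which Rps27l counts were set, had 2, so that percentage is uncertain as well. An exon of another gene on the opposite strand overlapped 19 members, none of them distal on chromosome 7. At the threshold of 60 summed counts, Rps10 with 180, Rpl23a with 184 and Rpl13a with 264 were just inside. Rpl24 with 58, Rpl39l with 6 and Rpl10l with 0 were outside.

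Other genes of the translation machinery were described with lists. The counts called in each list are to be read beside all tested genes, of which 5.65% were higher and 5.10% lower. Of 19 elongation factors and other mRNAs with a terminal oligopyrimidine tract, 3 were higher and 0 lower (median log2 fold change 0.03). Eef1a1, which brings aminoacyl-tRNA to the ribosome, averaged 764 ± 32 CPM in Vps13c-cKO and 614 ± 17.9 CPM in WT (log2 fold change 0.32 ± 0.03, edgeR adjusted p = 1.62e-06). Pabpc1, the poly-A binding protein, averaged 116 ± 5.62 CPM in Vps13c-cKO and 103 ± 7.71 CPM in WT (edgeR adjusted p = 0.0242), and Eif3l 64.5 ± 2.03 CPM in Vps13c-cKO and 57.8 ± 2.51 CPM in WT (edgeR adjusted p = 0.0129).

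Of 31 initiation factors 2 were higher and 1 lower (median 0.00). Eif4a1, an RNA helicase, averaged 149 ± 7.52 CPM in Vps13c-cKO and 130 ± 3.04 CPM in WT (edgeR adjusted p = 0.00109). Eif4g1, the scaffold of the cap-binding complex, averaged 534 ± 19.5 CPM in Vps13c-cKO and 499 ± 4.84 CPM in WT (edgeR adjusted p = 0.0445). Eif4g2, on distal chromosome 7, averaged 1068 ± 23.6 CPM in Vps13c-cKO and 1212 ± 52.5 CPM in WT (log2 fold change -0.18 ± 0.03, edgeR adjusted p = 6.10e-04). Of 95 assembly factors 2 were higher and 0 lower (median 0.05). Rrp12, which acts in export of ribosome precursors, averaged 28.7 ± 2.87 CPM in Vps13c-cKO and 20 ± 1.88 CPM in WT (log2 fold change 0.52 ± 0.07, edgeR adjusted p = 4.86e-05), and Wdr75 averaged 20.1 ± 1.86 CPM in Vps13c-cKO and 16.9 ± 1.90 CPM in WT (edgeR adjusted p = 0.0464).

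Of 20 genes of RNA polymerase I 1 was higher and 0 lower (median 0.02). Polr1e, one of its subunits, averaged 22.1 ± 1.45 CPM in Vps13c-cKO and 16.4 ± 1.14 CPM in WT (log2 fold change 0.43 ± 0.06, edgeR adjusted p = 9.90e-05). Of 40 genes of mTORC1 and its regulators 0 were higher and 2 lower (median -0.02). They were Fnip1, at 108 ± 5.52 CPM in Vps13c-cKO and 119 ± 6.01 CPM in WT (edgeR adjusted p = 0.0346), and Eef2k on distal chromosome 7, at 35.5 ± 3.91 CPM in Vps13c-cKO and 41.4 ± 3.87 CPM in WT (edgeR adjusted p = 0.0429). Of 20 ribosome rescue factors 0 passed the edgeR test and 0 passed with DESeq2. At an unadjusted p under 0.05 there were 3 of the 20, beside 2947 of all 12384 tested genes. Of 2 tested ribosome parts outside the name rule, Fau and Rack1, 0 passed with edgeR or DESeq2 and 0 had an unadjusted p under 0.05, with log2 fold changes of 0.03 ± 0.07 and 0.00 ± 0.04.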

How the data were processed

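RNA-seq counts of 12 mouse ventricles were used. The authors deposited raw read counts per gene; per the submitters' processing notes, reads were handled with fastp 0.22.0, HISAT2 2.1.0 and HTSeq 0.9.1 on GRCm39. Neither the annotation nor strandedness of counting is stated there, so overlapping genes on opposite strands cannot be told apart. Names, chromosomes and mRNA lengths came from GENCODE M21 (build GRCm38), and 21851 of 21959 gene IDs were named. Genes that passed filterByExpr (12384) were fitted with edgeR 4.0.16 (TMM, quasi-likelihood test, group as the only term) in R 4.3.3, with Benjamini-Hochberg adjustment over all tested genes. The test was also run on simulated counts with the same dispersion for every gene, and its recovery of changes as small as those reported is not given here. CPM used TMM-scaled library sizes. Errors are SD over 6 mice, or SE for fold changes, and intervals are 95%. Near copies were found with blastn 2.17.0. DESeq2 1.42.0, limma 3.58.1 and sva 3.50.0 served as alternatives. Each sample is labelled as a separate mouse. Replicate chi-square values per gene were 2.87 to 5.09, so no library repeated another.

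Named members were the 8 with the smallest p in each direction, the 4 highest and 4 lowest per kilobase, those next to the count limit of 60, and a set of 25 named for their roles; of the lists, up to 4 called genes each. Some genes are not reported here by name. Members and lists were chosen with earlier results of these data known.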

Additional observations from a re-analysis of the deposited data

Results flagged for a closer look

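In 6 of 78 groups of 6 mice, 1 mouse lay apart from the other 5, by a gap to its nearest neighbour of more than 0.625 of the range of the group. Chance gives about 1 in 20 groups. Rplp2 was 34.3 CPM in Vps13c-cKO mouse 4, with 36.2 to 37.3 CPM in the other Vps13c-cKO mice. Rpl35a was 32.1 CPM in Vps13c-cKO mouse 4, with 38.3 to 41.4 CPM in the others of its group. Rpl7 was 235 CPM in Vps13c-cKO mouse 2, with 252 to 257 CPM in the others, and Rpl39 was 26.3 CPM in the same mouse, with 20.3 to 22.3 CPM in the others. Rpl35 was 3.84 CPM in WT mouse 2, with 2.1 to 2.67 CPM in the other WT mice, and Rpl13a was 0.955 CPM in WT mouse 5, with 1.37 to 1.61 CPM in the other WT mice.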

How the results depend on the processing

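The same 6 ribosomal protein genes were called under 10 of the 11 alternatives that kept all mice and chromosome 7; DESeq2 made 3 higher (Rps27l, Rpsa and Rplp0) and a minimum mean of 5 CPM made 2 higher (Rps27l and Rpsa), and a length trend made 6 lower. Leaving out 1 mouse at a time gave 3 to 6 lower and 1 to 3 higher. With chromosome 7 genes left out, an alternative chosen after seeing the data, 0 of 64 were lower and 1 was higher. Of the 6 members called with edgeR, 0 changed direction under these alternatives. Among named members that were not called, Rpl35, Rpl39, Rps14 and Rps27a, all near 0, changed sign under some. The replicate numbers did not pair the mice (same-number correlations -0.04 to 0.06; 2 of 12 libraries correlated best with their own number); with the number as a block 4 members were lower. Among assembly factors the count called was 1 with no filter, DESeq2 or the block, 4 with a minimum mean of 5 CPM or 1 surrogate variable, and 1 to 4 with 1 mouse left out. Among elongation factors DESeq2 called 5, and leaving out 1 mouse gave 2 to 5. Among initiation factors DESeq2 and the length trend called 5 each. Among mTORC1 genes leaving out 1 mouse gave 0 to 3. The cause was not tested. Members with few counts, such as Rpl13a, Rpl23a, Rps10 and Rpl35, had wide intervals at this depth.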

Other observations

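Rpl9-ps6, a row whose name marks it as a pseudogene and which the name rule left out, averaged 15.5 ± 1.80 CPM in Vps13c-cKO and 18.2 ± 1.53 CPM in WT (log2 fold change -0.23 ± 0.08, edgeR adjusted p = 0.0727).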
